A study of Mus musculus with 6 samples.

Results

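Ion channels and ligand-gated receptors were examined in 2 groups of mouse glioma cells, GL261 and mNS. The members were the rows of the deposited table whose gene symbol belongs to the potassium (Kcn), calcium (Cacn), sodium (Scn), pacemaker (Hcn), TRP, Piezo, store-operated calcium entry (Stim, Orai, Itpr), chloride and anion (Clcn, Clic, Ano, Lrrc8), P2X, glutamate, GABA-A, glycine or nicotinic receptor families, and 77 of the 12151 listed genes matched. GL261, an established mouse glioma line labelled as differentiated glioma cells, grew in DMEM with fetal bovine serum, and was sequenced at passages 17, 33 and 34 (the passage field of the last says 33). The mNS cells, labelled as stem-like glioma cells, grew as neurospheres in DMEM/F12 with B-27, EGF, basic FGF and heparin, and were sequenced at passages 72, 77 and 85. Both media held penicillin, streptomycin, hepes, L-glutamine and β-mercaptoethanol. There were 3 libraries in each group. The labels name no genetic change or treatment, and do not give the tumour from which mNS was derived. Only the passage separates the libraries of a group in the labels, and the p-values therefore reflect the spread between 3 libraries, which may be technical.

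Ion channels are membrane proteins that let potassium, sodium, calcium or chloride cross a membrane down its gradient, and they open on voltage, stretch, a bound ligand, cell swelling or an emptied calcium store. Pore-forming subunits often assemble with accessory subunits that set their gating and traffic. In glial and glioma cells they are known for roles in the resting potential, volume changes during migration, calcium signals and the cell cycle. The mRNA levels given here do not measure the number of channels at the membrane or any current.

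Values are in CPM, the count of reads of a gene relative to the reads of its library, scaled between libraries by TMM normalisation factors. The columns as given sum to 1027692 to 1037864 CPM in GL261 and to 968335 to 969269 CPM in mNS. Between 12534422 and 14225175 reads per library fell in listed genes, so that 1 read was worth 0.0708 to 0.0773 CPM. Each group is summarised by its mean ± SD (n = 3), and log2 differences are mNS minus GL261 on the log2(CPM + 1) scale, with their SE, which understates the change of low genes. A gene was called at a Benjamini-Hochberg adjusted p under 0.05 in limma, adjusted over 12006 genes. The effects of cell line, medium and passage cannot be told apart here. Of 6 neural stem cell markers 5 were listed: Fabp7 (3.24 ± 2.06 and 89.8 ± 5.88 CPM in GL261 and mNS), Msi1 (4.46 ± 0.867 and 8.82 ± 1.29 CPM) and Pax6 (27.4 ± 2.03 and 37.2 ± 0.419 CPM) rose, Nes fell (1518 ± 175 and 955 ± 236 CPM), Sox2 was not called (181 ± 41.0 and 184 ± 15.1 CPM), and Prom1 was not listed. Without GL261 replicate 1 the fold of Fabp7 moved from 27.7 to 42.7. The 8 listed of 9 oligodendrocyte lineage markers summed to 1519 to 1639 CPM in GL261 and 1309 to 1515 CPM in mNS, and 5 rose and 3 fell. The 4 listed of 9 neuronal markers summed to 376 to 387 CPM and 481 to 552 CPM, with 3 higher and 1 lower in mNS, and Rbfox3, Dcx, Snap25, Syp and Stmn2 were not listed. The oligodendrocyte and neuronal sums both hold large changes of single genes in opposite directions. Close sums therefore do not show like levels of each gene. Of 8 astrocyte markers 6 were listed, with sums of 348 to 542 CPM and 377 to 494 CPM. Of these S100b (225 ± 17.4 and 52.1 ± 9.55 CPM), Gfap (3.45 ± 1.81 and 0.101 ± 0.115 CPM) and Aldh1l1 (8.19 ± 3.90 CPM and no read) fell, Aldoc (27.5 ± 8.22 and 185 ± 18.8 CPM) and Slc1a3 (29.1 ± 15.3 and 89.5 ± 17.8 CPM) rose, and Gja1 was not called. Without mNS replicate 1 the fold of Gfap moved from 34.1 to 89.3. The listed mural markers Acta2 and Pdgfrb summed to 25.6 to 27.6 CPM in GL261 and 0.155 to 0.637 CPM in mNS (2 listed of 7, Pecam1, Cdh5, Kdr, Tek and Rgs5 not listed), and the fibroblast markers Col1a1 and Col3a1 to 258 to 422 CPM and 93.6 to 229 CPM (2 listed of 5). Col1a1 fell (127 ± 9.75 and 6.18 ± 2.03 CPM). Col3a1 was not called and overlapped between the groups (230 ± 93.2 and 146 ± 70.6 CPM). In bulk libraries fewer cells of a type and less RNA per cell cannot be told apart. The part of these markers in the results below was not tested.

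The upstream sequences of 4 members are shown as examples of neighbouring genes that fell and of genes nearly or fully without reads in GL261. P2rx7 and P2rx4 lie next to each other on chromosome 5 and both fell in mNS, while Kcnj12 and Chrna4 had 3 reads and no read in GL261 and were expressed in mNS. Each run is the 250 bases before a RefSeq transcription start in GRCm38.p6, 5′ to 3′ on the strand of the gene, with every CG dinucleotide in capitals (the first of 2 listed starts for P2rx7). The windows of Kcnj12 and Chrna4 lie inside the gene spans given below, so their starts are not the outermost ones annotated.
P2rx7 (chr5:122643677-122643926, plus strand): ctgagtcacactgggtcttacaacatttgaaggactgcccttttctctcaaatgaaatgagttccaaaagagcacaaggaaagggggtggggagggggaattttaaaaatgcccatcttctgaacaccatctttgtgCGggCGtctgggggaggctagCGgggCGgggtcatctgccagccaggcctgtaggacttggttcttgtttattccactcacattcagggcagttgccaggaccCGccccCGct
P2rx4 (chr5:122707294-122707543, plus strand): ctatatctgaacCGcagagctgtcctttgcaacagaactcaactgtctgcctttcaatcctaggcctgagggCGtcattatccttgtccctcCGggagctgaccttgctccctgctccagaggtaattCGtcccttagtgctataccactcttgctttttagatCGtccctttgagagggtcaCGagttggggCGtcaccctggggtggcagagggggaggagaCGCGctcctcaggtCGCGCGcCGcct
Kcnj12 (chr11:61065554-61065803, plus strand): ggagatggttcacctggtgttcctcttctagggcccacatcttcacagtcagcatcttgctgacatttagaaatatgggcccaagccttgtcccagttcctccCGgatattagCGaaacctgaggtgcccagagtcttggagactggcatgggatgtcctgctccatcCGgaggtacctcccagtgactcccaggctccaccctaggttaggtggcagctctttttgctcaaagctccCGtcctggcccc
Chrna4 (chr2:181039178-181039427, minus strand): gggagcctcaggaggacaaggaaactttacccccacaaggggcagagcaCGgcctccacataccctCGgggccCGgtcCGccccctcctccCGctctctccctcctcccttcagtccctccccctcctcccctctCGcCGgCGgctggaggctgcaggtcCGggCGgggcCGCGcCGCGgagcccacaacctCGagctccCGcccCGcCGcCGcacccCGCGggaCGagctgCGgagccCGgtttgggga
The window of Chrna4 held 24 CG, a number reached by 11.98% of the 32851 windows of this length in the table, and that of P2rx4 held 13 (31.5% of windows). The windows of P2rx7 and Kcnj12 held 6 and 4, reached by 50.4% and 62.2% of windows. CG, which reads the same on both strands, occurred at least once in 92.1% of all windows, and the median was 6 per window in all and 12.5 over the 82 windows of the 61 members in the table. The windows in all were not restricted to genes with a row in the CPM data, as the members are. The medians therefore cover unlike sets of genes. Of the genes shown, Chrna4 and Kcnj12, with the most and the fewest CG, both rose.

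Most members differed between the GL261 and mNS groups, and more of them were higher in mNS than lower. Of the 77 members, 75 had a mean of at least 1 CPM and were tested. Of these, 60 were called, beside 64.3% of all genes tested. In mNS 37 members were higher (32.2% of all genes tested) and 23 were lower (32.1%). Among the calls, 34 members had moved by 1 or more on the log2 scale, 20 higher and 14 lower, beside 19.7% of all genes (11.3% higher and 8.47% lower). The groups did not overlap for 64 of the 75 (69.9% of all genes). The median log2 difference was 0.26 over the members and -0.0027 over all genes, and the median absolute difference 0.81 and 0.40. For 8 members the GL261 mean was under 1 CPM and the mNS mean at least 5 CPM (1.52% of all genes), and for 1 member, Kcna4, the reverse held (1.04%). A gene this low in GL261 is listed in the table through its mNS reads, and genes low in both groups were left out by the submitters' limit, so these counts describe the listed members. The 2 members below the limit of the test were Ano3 and Chrnd.

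**Figure D1:**
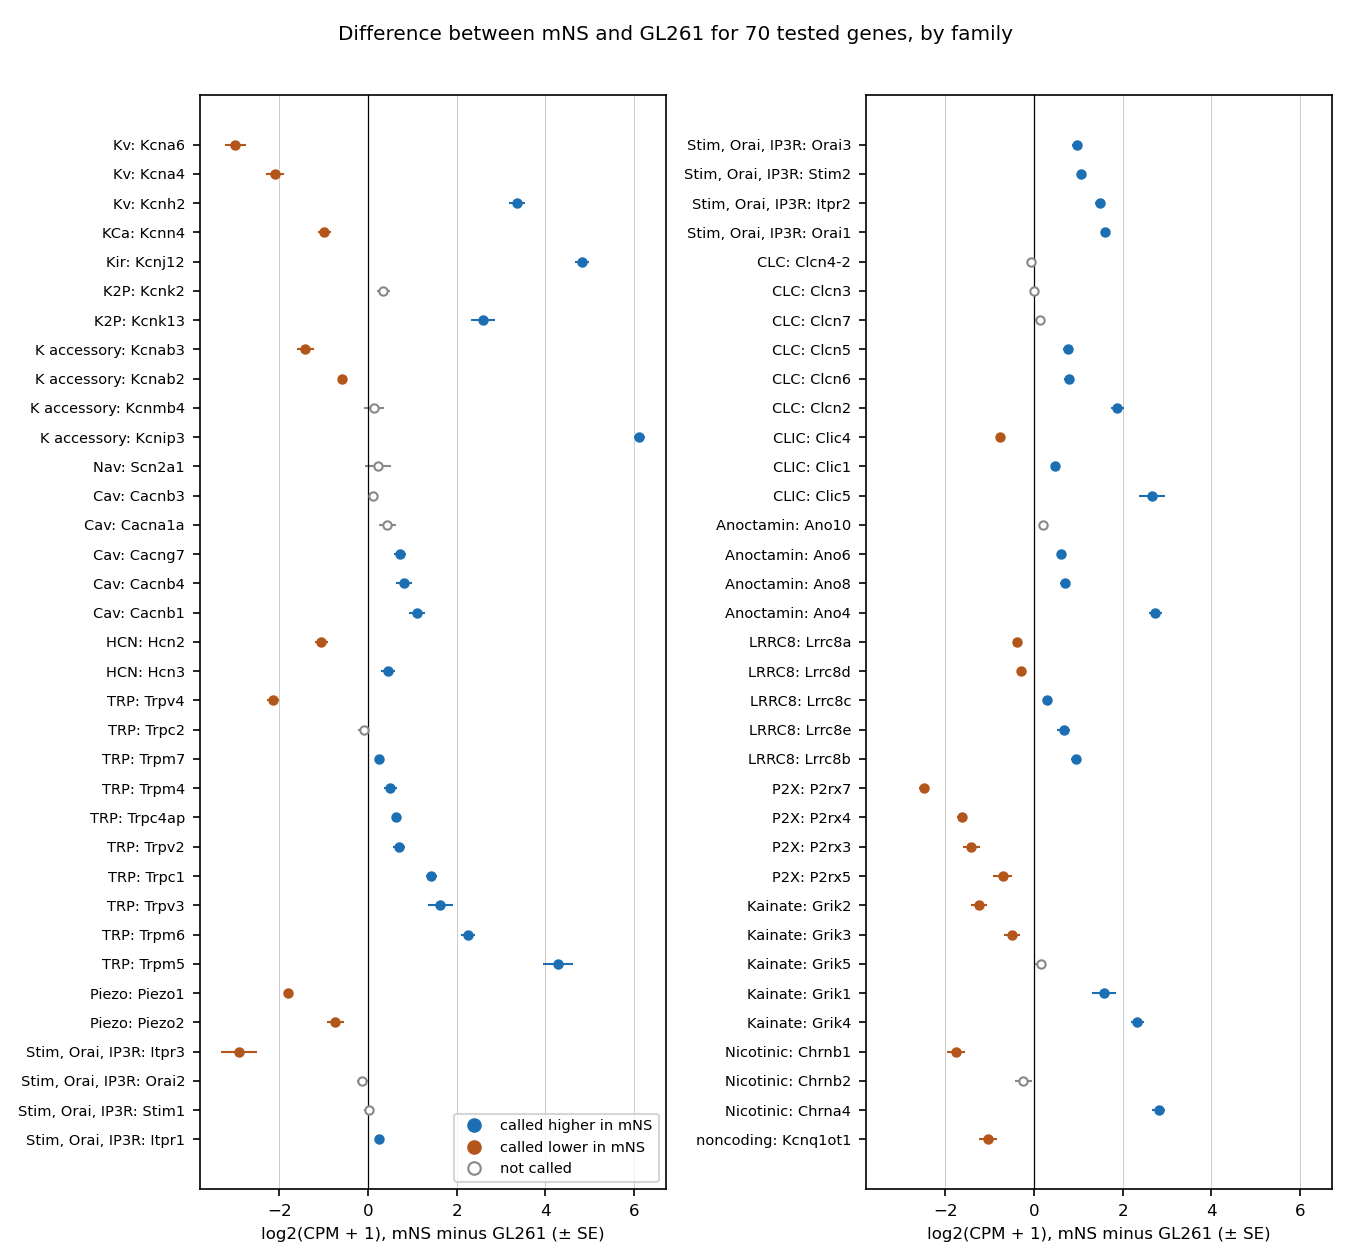
Log2 difference (mNS minus GL261, log2(CPM + 1), ± SE from limma) of 70 tested members, ordered by family. Filled blue points were called higher and filled brown points lower in mNS at an adjusted p under 0.05, and open grey points were not called; 35 points are blue, 21 brown and 14 open, from Kcna6 at -2.99 to Kcnip3 at 6.12.

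Of 13 potassium channel genes 4 rose and 6 fell in mNS, beside 32.2% and 32.1% of all genes tested, and both the voltage-gated pore genes and the accessory genes held rises and falls. The genes of the accessory protein Kcnip3, the inward rectifier Kcnj12, the voltage-gated Kcnh2 and the tandem-pore Kcnk13 rose, and the voltage-gated Kcna6 and Kcna4 fell. Summed over the 13 genes, the level was 437 ± 20.1 CPM in GL261 and 258 ± 15.0 CPM in mNS. Kcna6 alone made up 345 ± 21.8 CPM of the sum in GL261 and 45.0 ± 16.7 CPM in mNS. Without Kcna6 the sum was higher in mNS, so the fall of the sum is that of 1 gene.

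Kcna6 encodes a voltage-gated channel of the Shaker type that repolarises the membrane (chromosome 6, 126708329 to 126740674 in GRCm38). It stood at 365, 322 and 349 CPM in GL261 at passages 17, 33 and 34, and at 26.6, 49.3 and 59.1 CPM in mNS at passages 72, 77 and 85. Every GL261 library was above every mNS library, a 7.68-fold fall between group means (log2 difference -2.99 ± 0.24, adjusted p = 1.08e-05). Kcna4, a fast-inactivating relative (chromosome 2, 107290639 to 107298502), fell 7.84-fold at a far lower level, from 5.67, 6.95 and 8.67 CPM to 0.981, 1.24 and 0.496 CPM (log2 difference -2.09 ± 0.20, adjusted p = 3.21e-05).

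Kcnh2, the ether-a-go-go related channel of cardiac repolarisation (chromosome 5, 24319589 to 24351604), went the other way. Its values were 0.969, 0.448 and 0.506 CPM in GL261 and 19.8, 14.1 and 13.9 CPM in mNS, a 24.8-fold rise (log2 difference 3.36 ± 0.19, adjusted p = 1.13e-06). Kcnj12, an inward rectifier that holds the resting potential near that of potassium (chromosome 11, 61022564 to 61071131), had 3 reads in GL261 and 1186 in mNS. That is a ratio of 399 with an exact 95% binomial interval of 136 to 1936, which covers counting error only. By library the mNS values were 35.6, 26.8 and 26.1 CPM against 0, 0.0747 and 0.144 CPM, and the ratio of group means, 403, was 789 without GL261 replicate 3. Other inward rectifiers were not listed in the table.

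Of the tandem-pore channels, which carry background potassium current, Kcnk13 was called higher in mNS and Kcnk2 was not called. The groups overlapped for neither, as for 69.9% of all genes tested. Kcnk13 (chromosome 12, 99964499 to 100062682) rose 7.65-fold, from 1.34, 3.06 and 3.83 CPM to 15.7, 21.6 and 25.6 CPM (log2 difference 2.59 ± 0.28, adjusted p = 5.66e-05). The stretch-sensitive Kcnk2 stood at 13.5, 19.4 and 18.4 CPM in GL261 and 23.6, 21.5 and 20.3 CPM in mNS and was not called (log2 difference 0.35 ± 0.14, adjusted p = 0.0588). It was called in the test with columns rescaled to a common sum (0.0246), in edgeR's exact test (0.0492) and without GL261 replicate 2 (0.0409). The calcium-activated channel Kcnn4, known in migrating glioma cells and immune cells, fell 2.48-fold, from 5.74, 4.11 and 5.27 CPM to 2.04, 2.01 and 2.05 CPM (log2 difference -0.98 ± 0.15, adjusted p = 0.000446).

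Kcnip3 had the largest difference of all members. Its product, a calcium-binding protein also known as calsenilin or DREAM, binds voltage-gated potassium channels and can act as a transcriptional repressor (chromosome 2, 127456498 to 127522094). The GL261 libraries held 0.0745, 0.299 and 0.217 CPM (8 reads in all) and the mNS libraries 76.2, 84.4 and 85.4 CPM, a 417-fold difference between group means (log2 difference 6.12 ± 0.12, adjusted p = 6.84e-09). The cytoplasmic beta subunits fell: Kcnab3 from 2.98, 4.78 and 4.98 CPM to 0.906, 1.16 and 0.779 CPM (log2 difference -1.41), and Kcnab2 from 45.9 ± 0.514 to 30.6 ± 2.92 CPM (-0.57). Kcnmb4, a beta subunit of the large-conductance calcium-activated channel, overlapped between the groups (5.63 ± 1.88 and 6.21 ± 1.41 CPM).

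**Figure D2:**
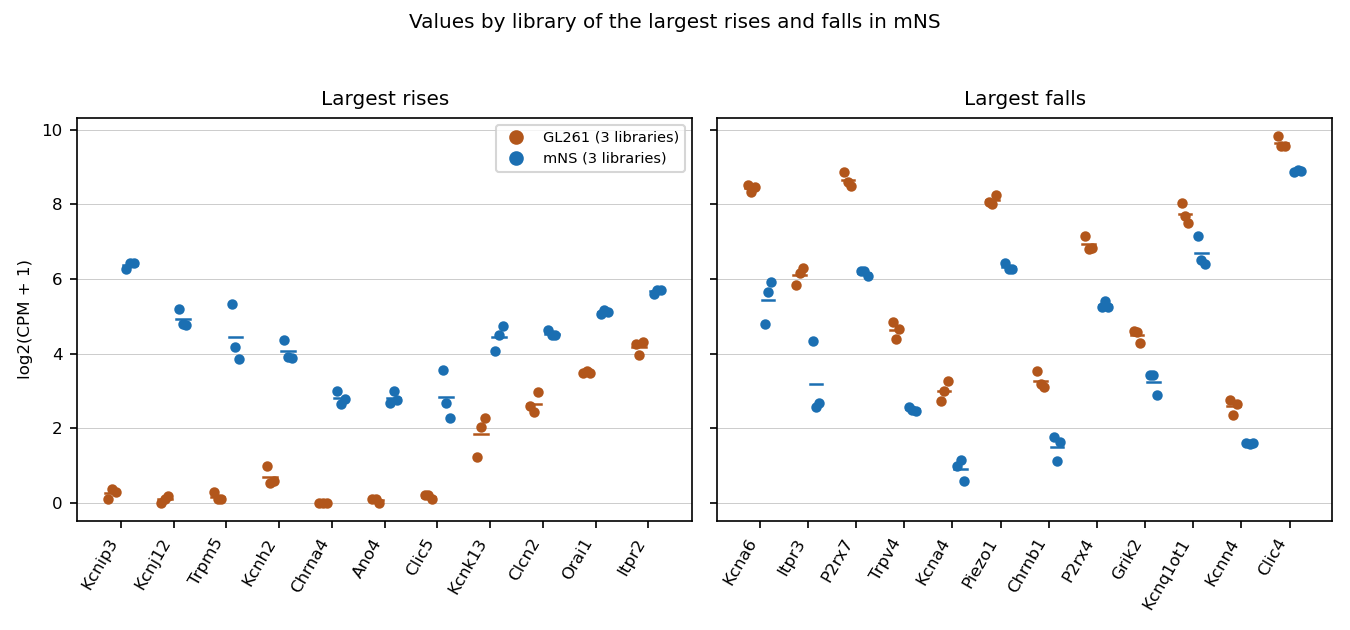
Values of 11 of the 12 largest rises (left) and the 12 largest falls (right) among called members with a higher group mean of at least 5 CPM, as log2(CPM + 1) for each of 3 GL261 libraries (brown) and 3 mNS libraries (blue), with a bar at the mean of the 3 log values. Only members whose groups do not overlap were eligible, so the lack of overlap in the 23 genes follows from the choice. Chrna4 lies at 0 in every GL261 library, and the mNS libraries of Itpr3, Trpm5, Clic5 and Kcna6 are spread apart.

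Voltage-gated calcium channel genes rose or were not called. Scn2a1, the gene of a neuronal sodium channel pore, overlapped (2.20 ± 1.32 and 2.66 ± 0.981 CPM), with its highest value in each group at passages 17 and 72 (3.73 and 3.77 CPM). Of 5 calcium channel genes 3 rose and none fell by the test, beside 32.2% and 32.1% of all genes tested. Cacna1a, a presynaptic pore subunit, was at 0.734 ± 0.373 and 1.32 ± 0.136 CPM and was not called, with 30 and 53 reads in all. Cacnb3, the beta subunit and the highest of the 5 per kb of exon, stood at 24.5, 24.1 and 23.5 CPM in GL261 and 28.0, 24.7 and 25.7 CPM in mNS (log2 difference 0.12 ± 0.09, adjusted p = 0.269). Cacnb1 rose from 1.71, 1.79 and 1.16 CPM to 4.45, 3.63 and 5.45 CPM (log2 difference 1.11 ± 0.18, adjusted p = 0.000662), Cacnb4 from 1.87 to 3.98 CPM (0.81), and Cacng7, whose product also escorts AMPA-type glutamate receptors, from 5.83 to 10.3 CPM (0.72).

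The pacemaker channels open on hyperpolarisation and bind cyclic nucleotides. Hcn2 fell from 4.92, 3.59 and 4.62 CPM to 1.74, 1.47 and 1.56 CPM (log2 difference -1.05 ± 0.15, adjusted p = 0.000350), with no overlap between the groups. Hcn3, from 1.18 to 1.98 CPM (0.45, adjusted p = 0.0284), lost its call without GL261 replicate 1 or 2 (0.0598 and 0.0768), without mNS replicate 2 or 3 (0.0624 and 0.0924) and in DESeq2 (0.140).

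Among TRP channels, which pass cations and respond to stretch, temperature, lipids or calcium, most genes were higher in mNS. Of 10 genes matched, 8 rose, 1 fell and 1 was not called, beside 32.2% higher and 32.1% lower among all genes tested. Trpc4ap, which is among the 8, encodes an adaptor that binds a TRP channel and is no channel itself (71.8 ± 5.11 and 111 ± 4.86 CPM). Trpm7, a magnesium-permeable channel with a kinase domain and the family's highest level per kb of exon, stood at 231, 234 and 210 CPM in GL261 and 282, 268 and 256 CPM in mNS (log2 difference 0.26 ± 0.07, adjusted p = 0.00864). Its close relative Trpm6, known for magnesium uptake in kidney and gut, had 10 reads in GL261 and 199 in mNS (0.245 ± 0.107 and 4.94 ± 0.493 CPM).

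Trpm5, a calcium-activated cation channel best known from taste cells (chromosome 7, 143069153 to 143094642), had the largest TRP difference. It held 0.224, 0.0747 and 0.0722 CPM in GL261 (5 reads in all) and 39.3, 17.1 and 13.5 CPM in mNS at passages 72, 77 and 85 (log2 difference 4.29 ± 0.33, adjusted p = 8.43e-06). The fold between group means, 188 with all libraries, was 317 without GL261 replicate 1 and 124 without mNS replicate 1. Tssc4, a gene on the opposite strand whose exons share 220 bases with Trpm5, stood at 20.6 ± 2.46 and 43.7 ± 3.497 CPM, and the sources used here do not say whether reads were assigned by strand. The related Trpm4 rose from 10.6 ± 1.18 to 15.6 ± 2.76 CPM (0.51).

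Trpc1, a subunit of receptor-operated channels, rose 2.87-fold, from 9.35 ± 0.859 to 26.9 ± 3.37 CPM (log2 difference 1.43), and Trpv2, known in glioma and macrophages, from 18.9 ± 2.84 to 31.5 ± 3.68 CPM (0.71). Trpv3, a warmth-sensing channel of skin, had 3 and 103 reads, 34.6 times as many after scaling (95% counting interval 11.5 to 171; the fold of group means moved from 33.9 to 67.6 without GL261 replicate 1). Trpv4, which opens on cell swelling and stretch (chromosome 5, 114622152 to 114658421), was the TRP gene that fell, from 28.0, 20.0 and 24.3 CPM to 4.98, 4.64 and 4.46 CPM. This was a 5.14-fold fall with no overlap (log2 difference -2.13 ± 0.14, adjusted p = 2.63e-06). Trpc2 was not called (20.4 ± 1.61 and 19.1 ± 3.31 CPM); nearly all of its exons also belong to the read-through gene Xntrpc, so its level is uncertain.

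Both Piezo genes, which encode channels opened by membrane stretch, fell in mNS. Piezo1 (chromosome 8, 122481698 to 122551329) went from 267, 256 and 304 CPM to 84.3, 75.8 and 75.6 CPM, 3.51-fold lower (log2 difference -1.80 ± 0.08, adjusted p = 3.31e-07). Piezo2, the channel of touch neurons, went from 26.1, 33.1 and 46.2 CPM to 21.4, 21.7 and 17.7 CPM (log2 difference -0.73 ± 0.19, adjusted p = 0.00832). Per kb of exon Piezo1 held 93.2 ± 1.37% of the pair's level in GL261 and 87.0 ± 1.16% in mNS. Piezo1 shares 2441 exon bases with Ctu2 on the opposite strand, which was at 37.5 ± 1.49 and 34.5 ± 2.44 CPM.

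Genes of calcium release from and entry after emptying of the endoplasmic reticulum store were mostly higher in mNS, with a change of IP3 receptor subtype. IP3 receptors release calcium from the store, STIM proteins sense its emptying, and ORAI proteins form the entry pore in the plasma membrane. Of 8 genes 5 rose, 1 fell and 2 were not called, beside 32.2% higher and 32.1% lower among all genes tested. Orai1 (chromosome 5, 123015074 to 123030456) rose 3.25-fold, from 10.1, 10.5 and 10.3 CPM to 32.2, 34.7 and 33.6 CPM (log2 difference 1.61 ± 0.09, adjusted p = 1.05e-06). Orai3 rose from 18.7 ± 2.57 to 37.7 ± 1.54 CPM (0.98), and Orai2 overlapped (12.5 ± 0.773 and 11.5 ± 1.72 CPM). Stim2, the sensor that responds to small losses of store calcium, rose from 61.2 ± 5.84 to 128 ± 9.92 CPM (log2 difference 1.06, adjusted p = 1.41e-05). Stim1 stood at 35.0, 27.4 and 30.8 CPM in GL261 and 33.7, 29.9 and 30.6 CPM in mNS (log2 difference 0.02 ± 0.11, adjusted p = 0.879). Per kb of exon the summed Orai level was 15.3 ± 1.35 in GL261 and 34.1 ± 0.348 in mNS, and the summed Stim level 14.9 ± 0.766 and 28.0 ± 2.13.

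Itpr3 (chromosome 17, 27057304 to 27122223) stood at 56.4, 70.4 and 77.0 CPM in GL261 and at 19.2, 4.95 and 5.38 CPM in mNS (log2 difference -2.90 ± 0.41, adjusted p = 0.000312). The passage 72 library was the highest of the mNS group, and the fold was 6.91 with all libraries and 13.2 without mNS replicate 1. Itpr2 rose 2.91-fold, from 18.0, 14.6 and 18.8 CPM to 47.5, 51.0 and 50.9 CPM (log2 difference 1.49 ± 0.11, adjusted p = 5.34e-06). Itpr1, the main subtype of brain, stood at 157, 142 and 146 CPM and 162, 177 and 189 CPM (0.24 ± 0.07, adjusted p = 0.0193). Its call was lost without GL261 replicate 2 or 3 (adjusted p = 0.0730 and 0.0568) and without mNS replicate 2 or 3 (0.0667 and 0.0712). Per kb of exon Itpr3 made up 44.7 ± 4.99% of the IP3 receptor level in GL261 and 7.72 ± 6.30% in mNS, Itpr2 6.89 ± 0.843% and 23.9 ± 1.32%, and Itpr1 48.4 ± 4.47% and 68.3 ± 5.19%. The sum differed less, at 16.8 ± 0.903 and 14.1 ± 0.374 CPM per kb.

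**Figure D3:**
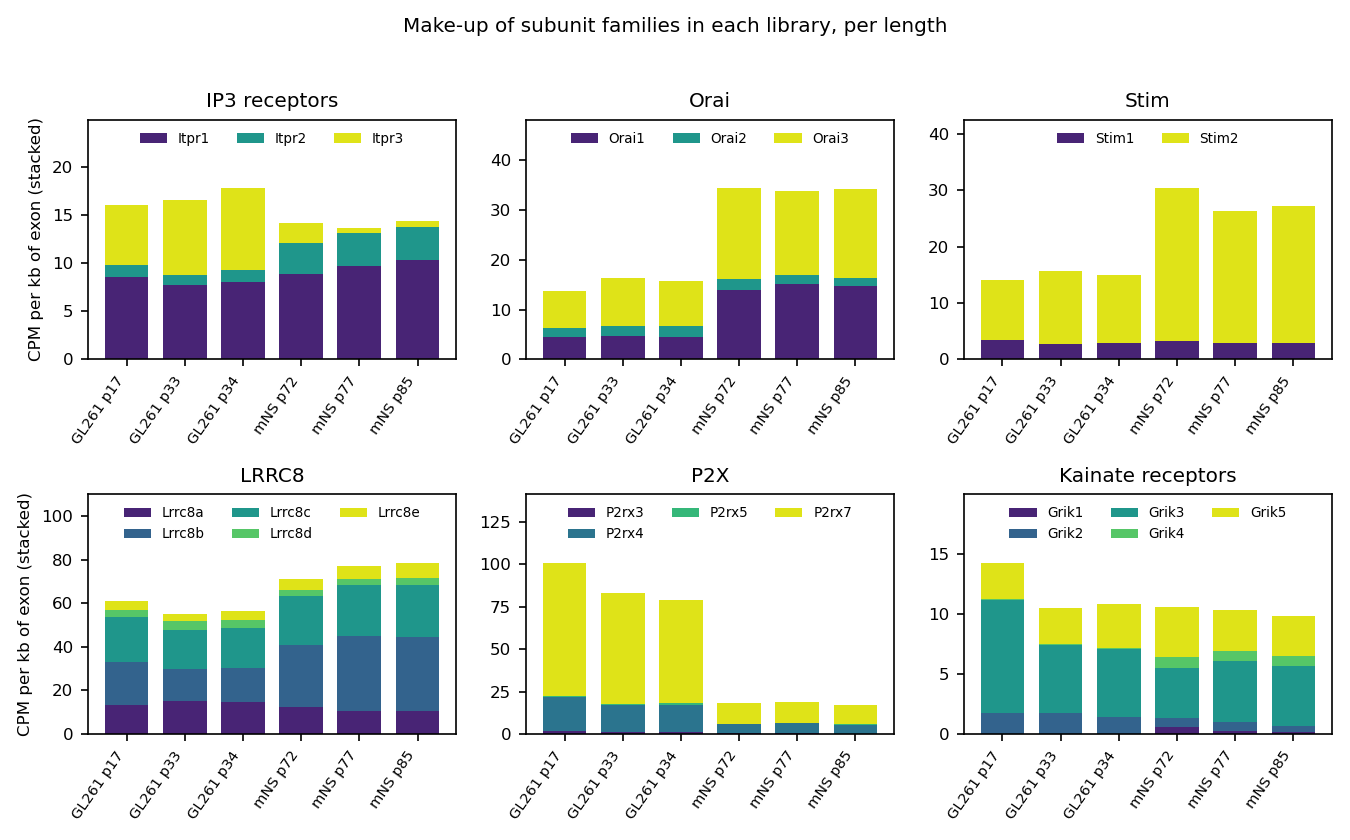
Stacked levels of 6 subunit families in CPM per kb of exon (y axis from 0) in each library, named by group and passage. Itpr3 shrinks and Itpr2 grows from GL261 to mNS while the IP3 receptor sum stays between 13.6 and 17.8, the Orai and Stim sums are higher, and the P2X sum goes from 78.6 to 101 in GL261 to 17.0 to 19.0 in mNS.

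More anion channel genes rose than fell: of 18 tested 11 rose, 3 fell and 4 were not called. Over all genes tested 32.2% rose and 32.1% fell. Clic1 and Clic4, small proteins that exist in soluble and membrane forms, led all members per kb of exon in both cultures. Clic4 (chromosome 4, 135213969 to 135272814) fell from 912, 752 and 751 CPM to 463, 483 and 478 CPM (log2 difference -0.76 ± 0.08, adjusted p = 5.71e-05), and Clic1 rose from 275 ± 29.7 to 382 ± 6.05 CPM (0.48). On the scale per kb of exon Clic1 stood at 153 ± 16.5 and Clic4 at 123 ± 14.1 in GL261, and at 212 ± 3.36 and 72.2 ± 1.58 in mNS. Clic5, known for its link to actin in hair cells and podocytes, had 5 reads in GL261, and the mNS libraries held 10.7, 5.41 and 3.82 CPM (log2 difference 2.67 ± 0.29, adjusted p = 6.77e-05).

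Of 6 genes of the CLC family 3 rose and none fell by the test, beside 32.2% and 32.1% of all genes tested. Clcn2, a chloride channel of the plasma membrane (chromosome 16, 20702964 to 20717746), rose 4.12-fold, from 4.99, 4.41 and 6.79 CPM to 23.8, 21.4 and 21.5 CPM (log2 difference 1.88 ± 0.15, adjusted p = 9.25e-06). Its exons share 85 bases with Fam131a on the opposite strand, which also rose, from 1.01 ± 0.0983 to 9.30 ± 0.600 CPM. The endosomal exchanger genes Clcn5 and Clcn6 rose from 112 ± 16.9 to 189 ± 3.02 CPM and from 14.6 ± 0.712 to 26.0 ± 2.25 CPM. Clcn3, an endosomal exchanger, lay at 221, 217 and 223 CPM in GL261 and 226, 216 and 216 CPM in mNS (log2 difference -0.0041 ± 0.05, adjusted p = 0.952). Clcn4-2 (139, 143 and 134 against 145, 130.0 and 121 CPM) and the lysosomal Clcn7 (61.3, 49.8 and 55.1 against 66.2, 59.8 and 56.1 CPM) also overlapped between the groups.

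Anoctamins rose or were not called. Ano6, a calcium-activated scramblase that exposes phosphatidylserine and the highest of the family per kb of exon, stood at 276, 273 and 315 CPM in GL261 and 459.8, 447 and 424 CPM in mNS (log2 difference 0.62 ± 0.07, adjusted p = 8.18e-05). Ano4 (chromosome 10, 88948994 to 89344762) had 2 reads in GL261 and 5.36, 6.96 and 5.81 CPM in mNS, which is 123 times as many after scaling (95% counting interval 33.5 to 1017). Ano8, which tethers the endoplasmic reticulum to the plasma membrane, rose from 27.5 ± 2.11 to 45.0 ± 4.89 CPM. Ano10 was at 65.2, 52.5 and 56.0 CPM and 63.5, 66.0 and 72.2 CPM and was not called (0.22 ± 0.10, adjusted p = 0.0757). It was called with columns rescaled to a common sum (0.0213) and without GL261 replicate 1 (0.0111). Ano3, too low to be tested, had 5 and 55 reads.

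The LRRC8 proteins form the volume-regulated anion channel, in which Lrrc8a is the subunit every channel needs and the others set what it conducts. Lrrc8a fell from 58.1, 64.7 and 64.2 CPM to 53.0, 44.7 and 45.9 CPM (log2 difference -0.38 ± 0.09, adjusted p = 0.00526); part of its exons is shared with a read-through gene model on the same strand. Lrrc8b rose from 131, 101 and 103 CPM to 192, 232 and 226 CPM (0.95 ± 0.11, adjusted p = 0.000106), Lrrc8c from 145 ± 11.6 to 179 ± 6.75 CPM (0.30) and Lrrc8e from 15.0 ± 2.45 to 24.5 ± 3.91 CPM (0.67). Lrrc8d was lower in mNS (46.5 ± 4.59 and 37.7 ± 2.65 CPM; -0.29, adjusted p = 0.0256), a call lost without GL261 replicate 2 or 3 (0.101 and 0.0613), without mNS replicate 1 or 2 (0.0673 and 0.0851) and with columns rescaled to a common sum (0.0907). Per kb of exon the share of Lrrc8a in the family went from 25.3 ± 2.74% in GL261 to 14.8 ± 2.21% in mNS and that of Lrrc8b from 28.8 ± 2.69% to 42.5 ± 2.27%. Lrrc8b, Lrrc8c and Lrrc8d lie in a row on chromosome 5 on the same strand, with gaps of 29.3 and 87.0 kb, and did not move alike.

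Of 13 ligand-gated channel genes tested 4 rose and 7 fell, beside 32.2% and 32.1% of all genes tested. All 4 listed P2X genes were among the 7. P2X receptors are cation channels opened by extracellular ATP, and the call of P2rx5 depended on 1 library. P2rx7, whose product opens at high ATP and is best known from immune cells and microglia (chromosome 5, 122643911 to 122691432), stood at 466, 389 and 361 CPM in GL261 and 72.6, 73.7 and 67.1 CPM in mNS. The fall was 5.70-fold with no overlap (log2 difference -2.49 ± 0.10, adjusted p = 1.32e-07). P2rx4 (chromosome 5, 122707544 to 122729738), a widely expressed subtype, fell 3.17-fold, from 141, 112 and 112 CPM to 37.0, 41.6 and 36.7 CPM (-1.63 ± 0.10, adjusted p = 2.64e-06). P2rx3, the subtype of pain neurons, fell from 4.12 ± 1.22 to 0.897 ± 0.113 CPM (-1.41), and P2rx5 from 1.79 ± 0.771 to 0.675 ± 0.177 CPM (-0.71, adjusted p = 0.0188, and 0.0566 without mNS replicate 3).

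P2rx7 and P2rx4 are separated by 16.1 kb, and their upstream sequences are given above. Orai1, which lies 285 kb beyond P2rx4 on the same strand, moved the other way. The level of markers of microglia and macrophages was low in both cultures: Aif1, Cx3cr1, Itgam, P2ry12 and Ptprc were not listed, and the 3 listed of 8 summed to 4.62 to 6.26 CPM in GL261 and 8.50 to 11.2 CPM in mNS. Of these Cd68 rose from 2.95 ± 0.156 to 8.09 ± 1.32 CPM and Tmem119 from 0.640 ± 0.158 to 1.64 ± 0.0202 CPM, and Csf1r, too low to be tested, was at 1.68 ± 0.585 and 0.0488 ± 0.0423 CPM.

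Glutamate-gated channels were listed for the kainate type alone, with 5 genes. Of these 2 rose, 2 fell and 1 was not called, beside 32.2% higher and 32.1% lower among all genes tested. Grik2 (chromosome 10, 49094833 to 49788766) fell from 23.2, 22.7 and 18.6 CPM to 9.81, 9.74 and 6.37 CPM (log2 difference -1.24 ± 0.17, adjusted p = 0.000258). Grik3, the highest per kb of exon, stood at 84.5, 51.3 and 51.1 CPM in GL261 and 37.9, 46.1 and 44.7 CPM in mNS, with the passage 17 library far above the others (-0.49 ± 0.19, adjusted p = 0.0438). That call was lost without GL261 replicate 1 (adjusted p = 0.0501), without each mNS replicate in turn (0.125, 0.0674 and 0.0673), with columns rescaled to a common sum (0.0876) and in limma without trend (0.0689). Grik4, a subunit that needs a partner from Grik1 to Grik3, had 0.149, 0.0747 and 0.289 CPM in GL261 and 5.21, 4.56 and 4.89 CPM in mNS (log2 difference 2.33 ± 0.15, adjusted p = 2.58e-06), 28.6-fold, or 43.7-fold without GL261 replicate 3. Grik1 had 1 and 89 reads, 89.7 times as many after scaling (95% counting interval 15.7 to 3584). The fold of group means was 89.4, or 58.2 without mNS replicate 1, and without GL261 replicate 1 no read remains in GL261. Grik5, the other subunit that needs a partner, was not called (16.8 ± 1.86 and 18.7 ± 2.23 CPM). The sum over the 5 genes per kb of exon was 11.8 ± 2.07 in GL261 and 10.2 ± 0.359 in mNS.

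Nicotinic receptor genes were few and low. Chrna4, the alpha subunit of the main nicotinic receptor of brain (chromosome 2, 181018380 to 181043546), was without a read in GL261 and stood at 7.02, 5.26 and 5.88 CPM in mNS. Against a floor of 3 reads in each GL261 library, a mean of 0.222 CPM, this is at least 27.3-fold higher (log2 difference 2.81 ± 0.15, adjusted p = 1.02e-06). Chrnb2, its usual partner in brain, was not called, at 1.30 ± 0.167 and 0.975 ± 0.363 CPM; its exons share 1365 bases with the far more abundant Adar on the opposite strand (153 and 90.9 CPM). Of the muscle-type subunits, Chrnb1 (chromosome 11, 69784036 to 69795943) fell from 10.5, 8.07 and 7.66 CPM to 2.42, 1.16 and 2.12 CPM (-1.76 ± 0.20, adjusted p = 8.71e-05). Chrnd, too low to be tested, had no read in GL261 and 50 reads in mNS, at least 5.63-fold higher against the same floor.

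Kcnq1ot1 matched by name only: it is a noncoding RNA read from inside the potassium channel gene Kcnq1 on the opposite strand, known for silencing imprinted neighbours (chromosome 7, 143203458 to 143296549). It stood at 259, 205 and 178 CPM in GL261 and 142, 90.7 and 83.5 CPM in mNS (log2 difference -1.04 ± 0.20, adjusted p = 0.00190). Kcnq1 itself was not listed. Trpm5 lies 109 kb away in the same domain on the same strand. In both groups the lowest passage had the highest Kcnq1ot1 value, with 1 library per passage.

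The libraries of a group were close for most members, and a few genes differed by passage. Of 63 members with an mNS mean of at least 2 CPM, 7 differed by over 2-fold between the highest and the lowest mNS library. At passage 72 Trpm5, Itpr3, Clic5 and Grik1 were higher than at passages 77 and 85, and Kcna6 and Trpv3 were lower. Trpv3 stood at 1.13, 2.55 and 3.89 CPM and Grik1 at 3.77, 1.55 and 1.35 CPM at passages 72, 77 and 85. Of 55 members with a GL261 mean of at least 2 CPM, 2 differed by over 2-fold: Kcnk13, lowest at passage 17 (1.34 CPM), and Scn2a1, highest there (3.73 CPM). With 1 library per passage these values carry no test.

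**Figure D4:**
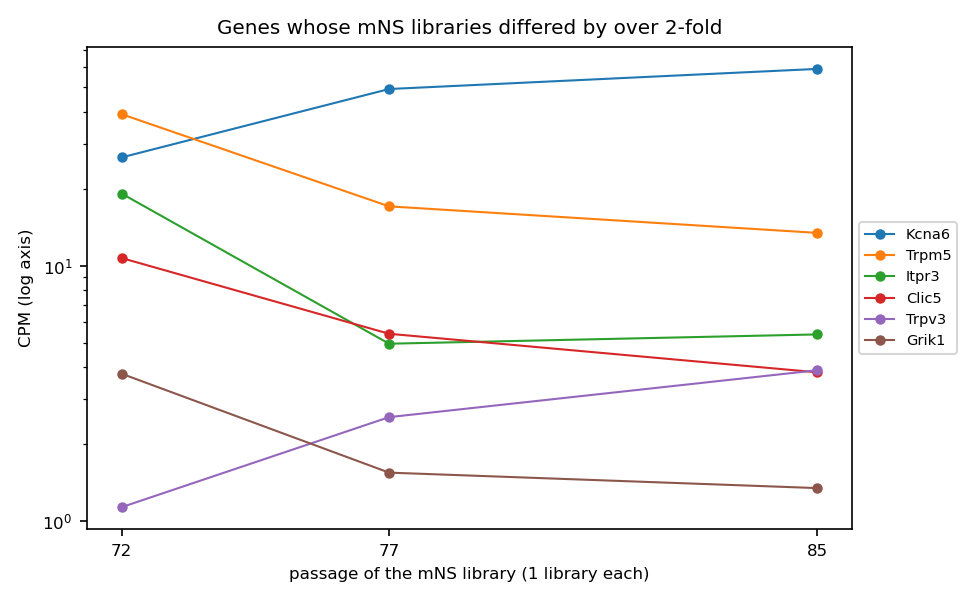
CPM (log axis) of 6 members with an mNS mean of at least 2 CPM whose mNS libraries differed by over 2-fold, by passage, with 1 library per point. Trpm5, Itpr3, Clic5 and Grik1 are highest at passage 72, while Kcna6 (26.6 to 59.1 CPM) and Trpv3 (1.13 to 3.89 CPM) are lowest there.

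Genes that work with these channels were counted from 4 further lists. Of 155 genes in them 95 were listed and tested. Of these 68 were called, 40 higher and 28 lower in mNS, beside 64.3% of all genes (32.2% higher and 32.1% lower). These shares of all genes also stand beside the counts of each list below. Among channels outside the families above, 17 of 33 rose and 9 fell (median log2 difference 0.29). Nalcn, the sodium leak channel that sets the resting potential of neurons, rose from 1.60 ± 0.822 to 94.1 ± 16.0 CPM (5.23), the acid-sensing channel family member Asic4 from 0.149 ± 0.0760 to 16.0 ± 0.174 CPM (3.89), and Ryr3, a ryanodine receptor that releases store calcium, from 0.368 ± 0.254 to 16.1 ± 1.99 CPM (3.66). The proton channel gene Hvcn1 rose from 1.23 ± 0.742 to 16.8 ± 0.547 CPM, 13.6-fold, or 20.8-fold without GL261 replicate 1.

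Among pumps and exchangers 2 of 15 rose and 7 fell (median -0.21). Slc12a2, the cotransporter that loads cells with chloride, rose from 147 ± 9.89 to 471 ± 52.2 CPM (1.67), and the potassium-chloride cotransporter Slc12a4 fell from 171 ± 14.0 to 81.2 ± 5.43 CPM (-1.07). Fxyd5, which encodes a regulator of the sodium pump, fell from 29.1 ± 4.82 to 0.864 ± 0.422 CPM (-4.03). Among scaffolds and partners 12 of 31 rose and 8 fell (median 0.14). Grip1, which binds AMPA-type receptors, rose from 0.891 ± 0.843 to 14.2 ± 1.70 CPM, 15.9-fold, or 35.0-fold without GL261 replicate 1. The scaffold gene Dlg3 rose (2.02), and the ubiquitin ligase gene Nedd4l, which removes channels from the membrane, fell from 110.4 ± 18.8 to 25.1 ± 2.27 CPM (-2.08).

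Among genes of glutamate, GABA and glycine handling 9 of 16 rose and 4 fell (median 0.33). The glutamine transporter gene Slc38a3 rose from 0.664 ± 0.124 to 46.5 ± 12.5 CPM (4.81). Slc7a11, the cystine-glutamate exchanger known for glutamate release by glioma cells, rose from 16.4 ± 14.7 to 138 ± 7.87 CPM, 8.44-fold, or 17.5-fold without GL261 replicate 1. The GABA-degrading enzyme gene Aldh5a1 (2.33) and the glycine cleavage gene Gldc (2.10) also rose, and the GABA-making enzyme genes Gad1 and Gad2 were not listed.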

How the data were processed

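Stranded, ribosome-depleted single-read libraries were made from 6 cultures, per the labels. Without giving roles, the submitters' processing notes list mm10, edgeR 3.4.2, HTSeq 0.5.3p9 and TopHat2 2. The deposited table holds a normalised signal per gene and library, CPM with TMM factors per the labels, and column sums differ from plain CPM. Whether counting used strand, and the limit on low genes, are not given in the sources used here; each listed gene had at least 46 reads. Low values were whole multiples of 1 step per column, and 100% of values came out as whole reads within 0.001 reads.

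Groups were compared with limma 3.58.1 in R 4.3.3 (two-sided, lmFit and a trended eBayes) on log2(CPM + 1), and p-values were adjusted over 12006 genes at a mean of 1 CPM or more. N-fold values are ratios of group means of CPM. Alternatives were edgeR 4.0.16 (quasi-likelihood and exact test) and DESeq2 1.42.0 on recovered reads, other pseudocounts, filters and scalings, an adjusted p under 0.01, and leaving out each library. The scripts were tested on simulated data. A floor is 3 reads per library; intervals are exact binomial (Clopper-Pearson, 95%) and, like floors, cover counting error only. Values in every library are given for the 12 largest rises and the 12 largest falls. These were taken among called members whose groups did not overlap and whose higher mean was at least 5 CPM. Such values are also given for the member with the highest mean CPM and the largest rise and fall of each family. The 6 uncalled members with the highest mean, and some others named after their values were seen, have them too. Of each partner list up to 4 called genes are named. Some members and list genes are counted but not reported here by name. The members and lists were chosen with earlier results of these data known. Positions and exon lengths (the union of all annotated exons) follow GENCODE M21, on the GRCm38 assembly that mm10 names. These lengths may differ from those of the gene models used for counting. All 77 members matched, 2 through a synonym. Upstream sequences are from RefSeq (GRCm38.p6). Tables were made in Python 3.11.15 with scipy 1.17.1 and pandas 2.3.3, and plots with matplotlib 3.10.9.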

Additional observations from a re-analysis of the deposited data

How the results depend on the processing

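Of the 60 called members, 53 kept their direction and call in all 17 alternatives, 7 lost the call in at least 1, and none of the 60 changed direction. Among the 7 were Grik3, Hcn3, Itpr1, Lrrc8d and P2rx5, whose values are given above, and Trpm4, which was lost at an adjusted p under 0.01 (its adjusted p was 0.0136). Of the members called, counts lay between 55 and 58 when 1 library was left out. With a filter at a mean of 5 CPM, which tests fewer genes, 15 members were called lower. Of the uncalled members 4 were called in at least 1 alternative (among them Ano10, Kcnk2 and Cacna1a), and 5, all without a call there, changed direction. With columns rescaled to a common sum, which moved the median gene to 0.0814, the log2 difference was 0.0866 for Clcn3 and 0.0186 for Clcn4-2. Clcn3 was at 0.0018 in DESeq2, and Stim1 at -0.0032 with libraries centred on the median gene. Over the fits without 1 library the log2 difference lay between -0.0261 and 0.0071 for Clcn3, between -0.0473 and 0.354 for Kcnmb4, between -0.0648 and 0.108 for Stim1 and between -0.219 and 0.0159 for Trpc2; the cause was not tested. No paired analysis was possible because the labels give passages and no replicate number shared between the groups. The folds of members with 0 to 10 reads in GL261 are limited by depth.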

Other observations

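Genes that neighbour 2 of the members' loci were given values after the members' values were seen. Around Trpm5 and Kcnq1ot1 on chromosome 7, Cd81, a tetraspanin gene, rose from 153 ± 13.01 to 582 ± 27.2 CPM (log2 difference 1.92, limma adjusted p = 1.36e-07) and Tssc4 rose 1.05 on the log2 scale. Cdkn1c (1.09 ± 0.275 and 1.72 ± 0.671 CPM, limma adjusted p = 0.157), Phlda2 (8.80 ± 2.47 and 5.39 ± 2.02 CPM, 0.0578) and Osbpl5 (13.1 ± 1.59 and 10.2 ± 1.46 CPM, 0.0665) were not called. Around P2rx7 on chromosome 5, Camkk2, a kinase gene next to P2rx4, fell from 71.8 ± 8.81 to 45.5 ± 3.84 CPM, Anapc5 from 427 ± 20.5 to 336 ± 5.01 CPM and Rnf34 from 36.2 ± 1.82 to 27.1 ± 2.53 CPM, whereas Kdm2b, a histone demethylase gene, rose from 23.9 ± 1.15 to 72.7 ± 9.93 CPM. Ift81 also rose, from 20.9 ± 0.912 to 39.5 ± 0.962 CPM, and Atp2a2 fell from 448 ± 1.61 to 321 ± 21.7 CPM. Over all genes tested 32.2% rose and 32.1% fell.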
